A study of Mus musculus with 6 samples.

Results

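The features flanking *Khdrbs3*, the gene that encodes the RNA-binding protein SLM2, are the genes and unnamed transcribed units of the deposited expression table that lie wholly within 10 Mb on either side of it on mouse chromosome 15 (chr15:58928418-79101211, build mm10). Features that overlap *Khdrbs3* itself (chr15:68928418-69101211) and the genes *Lynx1*, *Ly6h* and *Ly6e* were left out. Of the 59484 features of the table, 1032 met this rule, 209 with a gene symbol and 823 without one. They were compared between wild-type cortex and cortex of *Sam68:Slm2* double knockout (dKO) embryos according to their distance from the targeted gene. Features with lower coordinates than *Khdrbs3* are called proximal, since they lie towards the centromere, and those with higher coordinates are called distal.

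PolyA+ RNA was sequenced from the cortex of C57BL/6 mice at embryonic day 18.5, in 3 wild-type samples with both *Khdrbs1* (Sam68) and *Khdrbs3* (SLM2) intact and in 3 dKO samples homozygous for the knockout alleles of both genes. The dKO embryos came from parents that all lacked SLM2, so they had no wild-type littermates, and litter and genotype cannot be told apart. The wild-type libraries held 37301024, 32966884 and 39654253 reads on the listed features, and the dKO libraries held 40896541, 34808551 and 31837922. Values are reads scaled by library with DESeq2 size factors, called normalized counts, with no correction for gene length. SE is the standard error of a log2 fold change (dKO over wild-type, n = 3 each). Libraries are given in the order of their replicate numbers, with the wild-type libraries before the dKO libraries.

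*Khdrbs1*, on chromosome 4, had 8231, 8436 and 7974 normalized counts in wild-type and 114, 197 and 146 in dKO cortex. *Khdrbs3* had 13543, 15215 and 12764 normalized counts in the wild-type libraries and 7059.5, 6349.7 and 6547 in the dKO libraries. Every dKO library lay below every wild-type library for both genes. The dKO mean was 1.86% of the wild-type mean for *Khdrbs1* and 48.1% for *Khdrbs3*. The values cover whole genes, and reads over the targeted exons were not analysed here. Genes that mark cortical projection neurons were present in all 6 libraries, and the summed normalized counts of the 8 genes of that list ran to 105422, 128380.4 and 96674 in wild-type and 139912, 107946 and 140999.6 in dKO cortex. Most of these reads were from *Neurod6* and *Neurod2*. Of the 8 genes, 7 had log2 fold changes above 0 and 3 had an unadjusted p under 0.05, *Emx1* (log2 fold change 0.54, limma adjusted p = 0.09 and 0.000515 from DESeq2), *Bcl11b* (0.31) and *Neurod2* (0.31). Of all features tested, 11.5% had an unadjusted p under 0.05, 4.92% higher and 6.58% lower in dKO cortex. The dKO libraries lay above the wild-type libraries for *Emx1* and *Bcl11b*. Of 7 genes of radial glia and intermediate progenitors, 3 had an unadjusted p under 0.05 (against 11.5% of all features), *Eomes* (log2 fold change 0.49), *Pax6* (0.28) and *Vim* (0.23). In all, 5 genes of this list lay above 0 and 2 below, *Hes5* (-0.51) and *Fabp7* (-0.11), the gene with the most reads. The list summed to 31375, 30674 and 39079 against 34429, 39841 and 32725 normalized counts. Of 4 immediate early genes, 2 had an unadjusted p under 0.05 (against 11.5% of all features), *Fosb* (log2 fold change 1.66, adjusted p = 0.0169 from DESeq2) and *Npas4* (-1.81). The 4 genes, led by *Egr1*, summed to 725, 423 and 1145 against 458, 774 and 564. None of these marker genes passed the adjusted test of limma, the sums overlapped between the genotypes, and the part of these differences in the values of the window was not tested. *Xist*, the RNA that coats the inactive X chromosome of females, had 0.95, 2793 and 12.3 normalized counts in wild-type and 3.63, 4.18 and 1661 in dKO libraries. The Y-linked gene *Ddx3y* had 631, 0 and 598 against 588, 454 and 0 normalized counts. Each genotype thus held 1 library with *Xist* and no *Ddx3y* and 2 libraries of the opposite kind.

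SLM2 and Sam68 are RNA-binding proteins of the STAR family that regulate alternative splicing, and SLM2 is made mainly in neurons. Genes that lie near a targeted gene on the same chromosome are inherited with it until recombination separates them, so the DNA around a knockout allele can differ from that of wild-type animals over a stretch that breeding shortens. The strain in which the *Slm2* allele was made is not given in the sources used here, and sequence variants of the flanking DNA were not analysed here.

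Most flanking features gave no reads in the cortex libraries. Of the 1032 members, 723 were at 0 in all 6 libraries, 129 had a mean above 0 and under 10 normalized counts, and 180 had a mean of at least 10 and were tested. The tested members are 130 features with a symbol and 50 without. The median length of members with a symbol is 9983 bases and that of members without one is 42 bases. Of the 209 symbols, 202 were found in the GENCODE M21 annotation of the same genome build, and the position in the table overlapped the annotated gene for all 202.

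None of the 180 tested members passed the adjusted test between the genotypes. limma was run on log2(normalized count + 1), a scale that understates differences of low features, and the p-values of all 18970 tested features received a Benjamini-Hochberg adjustment together. At an adjusted p under 0.05, limma called 0 of 180 members in either direction, against 0.1% of all features tested (19 of 18970), 0.0527% higher and 0.0474% lower in dKO cortex. edgeR on the reads recovered from the table called 0 members, against 0.1% of all features, and DESeq2 called 3, against 1.06%. At an unadjusted p under 0.05, 22 members (12.2%) were counted, 7 higher and 15 lower in dKO cortex, against 11.5% of all features, 4.92% higher and 6.58% lower. The libraries of the genotypes did not overlap for 31 members (17.2%), 14 of them higher and 17 lower in dKO cortex, against 16.4% of all features, 7.89% higher and 8.48% lower.

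The 180 tested members were split about evenly in direction. Their median log2 fold change was 0.0030 and that of all features tested was 0.0036, with 91 members above 0 and 89 below. Members with a symbol had 73 above 0 and 57 below (median 0.024, against 0.012 for all features with a symbol), and members without one had 18 above and 32 below (median -0.10, against -0.058 for all features without one). The median absolute log2 fold change was 0.14 among members and 0.15 among all features tested. A difference of less than 1.5-fold was measured for 89.4% of members and 89.1% of all features. The summed normalized counts of the window made up 0.886%, 0.911% and 0.908% of the table in wild-type libraries and 0.882%, 0.889% and 0.897% in dKO libraries, so that the genotypes overlapped.

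*Lynx1*, *Ly6h* and *Ly6e* lie in the same window and would have added 1 called feature. *Lynx1*, which encodes a membrane-anchored modulator of nicotinic acetylcholine receptors, had 293, 208 and 333 normalized counts in wild-type and 90.8, 79.5 and 95.1 in dKO cortex (log2 fold change -1.62 ± 0.21 SE, limma adjusted p = 0.0182) and lies 5.65 Mb from *Khdrbs3*. With these 3 genes kept, an alternative chosen after the data were seen, 1 of 183 features passed the adjusted test. *Ly6h* and *Ly6e* had log2 fold changes of -0.077 and -0.043, with overlapping genotypes.

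Expressed features were sparse close to *Khdrbs3* and dense far from it on the distal side. Within 2.5 Mb, 13 proximal features and 1 distal feature were tested. From 2.5 to 5 Mb there were 6 proximal and 24 distal features, from 5 to 7.5 Mb there were 4 and 65, and from 7.5 to 10 Mb there were 9 and 58. The proximal side held 32 tested members and the distal side 148.

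The share of members with an unadjusted p under 0.05 was not ordered by distance. It was 2 of 14 within 2.5 Mb (14.3%), 3 of 30 from 2.5 to 5 Mb (10%), 10 of 69 from 5 to 7.5 Mb (14.5%) and 7 of 67 from 7.5 to 10 Mb (10.4%), against 11.5% of all features tested. In the same bins the genotypes did not overlap for 2, 4, 10 and 15 members (14.3%, 13.3%, 14.5% and 22.4%), against 16.4% of all features, and 0 members in any bin passed the adjusted test of limma. Of the 3 members that DESeq2 called, 1 lies from 5 to 7.5 Mb and 2 lie from 7.5 to 10 Mb, and none is on a gene list used below. On the proximal side 3 of 32 members had an unadjusted p under 0.05, and on the distal side 19 of 148 did. The median absolute log2 fold change was 0.26, 0.12, 0.15 and 0.12 from the nearest to the farthest bin. Across the 180 members, which share the same 6 libraries, the Spearman correlation of the absolute log2 fold change with distance was -0.17, and with the mean normalized count it was -0.53. The values were -0.32 and -0.37 for the 32 proximal members and -0.14 and -0.54 for the 148 distal members. The mean itself had a correlation of 0.26 with distance (0.47 on the proximal and 0.23 on the distal side), so members near *Khdrbs3* tended to have fewer reads.

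The features nearest to *Khdrbs3* gave few reads or none. *Gm41341*, the nearest member, ends 0.045 Mb from it on the proximal side and was at 0 in all 6 libraries, as were *4930504C09Rik* on the distal side at 0.17 Mb and *Gm19782* at 0.82 Mb. An unnamed proximal feature, GSMG0013255 (chr15:68755499-68760811), lies 0.17 Mb away and had 2.85, 2.15 and 1.75 normalized counts in wild-type and 5.45, 6.27 and 3.48 in dKO cortex. GSMG0066450 (chr15:68341266-68358273) was at 0 in the wild-type libraries and had 3.63, 3.14 and 1.16 normalized counts in the dKO libraries. The feature that carries the symbol *Mir30b*, a microRNA gene, had 5.71, 6.44 and 1.75 against 7.26, 8.37 and 11.6 normalized counts. All dKO libraries lay above all wild-type libraries for these 3 features, but each value stands for a handful of reads and all 3 stayed under the minimum for the test. The other 2 features with reads under this minimum within 1 Mb, GSMG0014079 and GSMG0014075, overlapped between the genotypes. Of all 129 members with reads under the minimum, 7 (5.43%) had all dKO libraries above all wild-type libraries and 6 (4.65%) had them below, against 2.28% and 3.75% of all 12618 such features.

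The nearest tested features on the proximal side did not separate the genotypes. *Zfat*, a zinc-finger gene with roles in lymphocytes and blood vessels, lies 0.67 Mb from *Khdrbs3* and had 422, 479 and 483 normalized counts in wild-type and 554, 359 and 510.3 in dKO cortex (log2 fold change 0.018 ± 0.16 SE). *St3gal1*, which encodes a sialyltransferase of O-linked glycans, had 1457, 1368 and 1035 against 1388, 1077 and 1298 normalized counts. The ranges of the genotypes overlapped for both genes. *Ndrg1*, needed for the upkeep of myelin in peripheral nerves, had 3898, 4291 and 4195 normalized counts in wild-type and 4763, 4239 and 4881 in dKO cortex (log2 fold change 0.16, limma unadjusted p = 0.0779). *Wisp1*, a secreted matrix-associated protein gene of the Wnt pathway, was low, with 15.2, 30.1 and 36.8 against 34.5, 43.9 and 38.3 normalized counts. The genotypes overlapped for these genes too. Unnamed features beside them were GSMG0013252 (chr15:67177005-67181022, log2 fold change -0.44), in no GENCODE gene, and GSMG0014072 (chr15:67142730-67146669, log2 fold change -0.25), inside *St3gal1*.

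On the distal side the first tested feature is *Fam135b*, 2.34 Mb from *Khdrbs3*. It had 148, 177 and 103 normalized counts in wild-type and 202, 135 and 173 in dKO cortex (log2 fold change 0.27 ± 0.24 SE). *Col22a1*, which encodes a collagen of tissue junctions, had 424, 411 and 495 against 424, 434 and 405 normalized counts. Neither gene separated the genotypes. GSMG0014086 (chr15:72500880-72502664), inside *Kcnk9*, had 77.04, 22.6 and 21.04 against 29.9, 53.3 and 19.7 normalized counts, and 1 wild-type library stood above the rest.

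The imprinted *Peg13*-*Kcnk9* cluster lies 3.41 to 4 Mb distal of *Khdrbs3*. In brain, *Peg13* is a noncoding RNA made from the paternal chromosome inside an intron of *Trappc9*, and *Kcnk9*, the gene of a background potassium channel, is made mainly from the maternal one. All 5 genes of the list were tested, and 0 passed the adjusted test of limma. At an unadjusted p under 0.05, 0 were counted, against 11.5% of all features. *Kcnk9* had 193, 101 and 132 normalized counts in wild-type and 90.8, 88.9 and 103 in dKO cortex (log2 fold change -0.54 ± 0.25 SE, limma unadjusted p = 0.0525). Its dKO libraries lay close together, and the lowest wild-type library lay among them. *Peg13* had 21235, 19761 and 19421 normalized counts in wild-type and 21049.7, 19251 and 19194 in dKO cortex, with a log2 fold change of -0.022. *Trappc9*, which encodes a subunit of a vesicle-tethering complex, *Chrac1*, a histone-fold protein gene, and *Ago2*, the Argonaute gene whose protein cuts target RNAs, had log2 fold changes of 0.13, 0.19 and 0.18. Parent of origin was not measured, since the table does not separate alleles. The unnamed feature GSMG0013262 (chr15:72806713-72807314) lies inside *Peg13* and had 127, 107 and 111 normalized counts in wild-type and 113, 50.2 and 49.9 in dKO cortex. Of the dKO libraries, 2 lay below all wild-type libraries and 1 among them (log2 fold change -0.80, limma unadjusted p = 0.0271). GSMG0013263 (chr15:72808206-72808370), the other tested unnamed feature inside *Peg13*, had a log2 fold change of -0.015, with overlap between the genotypes.

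Of 13 members on a list of genes for neuronal excitability and synapses, 12 were tested and 1 had an unadjusted p under 0.05 (8.33%, against 11.5% of all features tested). That gene, *Adcy8*, encodes an adenylyl cyclase stimulated by calcium and calmodulin and lies 4.01 Mb proximal of *Khdrbs3*. It had 352, 252 and 290.2 normalized counts in the wild-type libraries and 175, 215 and 162 in the dKO libraries. All dKO libraries lay below all wild-type libraries, with a log2 fold change of -0.69 ± 0.18 SE (limma adjusted p = 0.268). The genes of the list with the most reads were *Grina*, a glutamate receptor-associated membrane protein gene, with 9729, 8506 and 8645 against 9343, 8816 and 8764 normalized counts, and *Adgrb1*, an adhesion receptor gene of excitatory synapses, with a log2 fold change of -0.040. *Sstr3*, the somatostatin receptor of neuronal cilia, had 151, 169.7 and 129 against 189, 132 and 270.2 normalized counts. These 3 genes overlapped between the genotypes. The median log2 fold change of the 12 genes was 0.061.

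Transcription factors and growth regulators made up 18 members, of which 16 were tested and 2 (12.5%, against 11.5% of all features) had an unadjusted p under 0.05. *Phf20l1*, a reader of methylated lysines on histones and other proteins, lies 2.28 Mb proximal of *Khdrbs3* and had 1922, 2336 and 1953 normalized counts in wild-type and 2404, 2561 and 2647 in dKO cortex (log2 fold change 0.30 ± 0.10 SE, limma adjusted p = 0.343). *Jrk*, a DNA-binding protein gene related to transposases, had 582, 607 and 530.4 against 627, 736 and 691 normalized counts (log2 fold change 0.26, limma adjusted p = 0.42). Both genes had all dKO libraries above all wild-type libraries. *Scrt1*, a neuronal repressor of the Snail family and the gene of the list with the most reads, had 10632, 11824 and 10033 against 12149.7, 10681 and 12209.7 normalized counts, with overlap. The growth regulator *Myc* had 2809, 2534 and 2306 against 2420.3, 2649.9 and 2409 normalized counts, and its noncoding neighbour *Pvt1* had 108, 91.3 and 107 against 68.1, 92.02 and 63.8 (log2 fold change -0.46, limma unadjusted p = 0.0687). The libraries of both genes overlapped between the genotypes.

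Among 17 members for the cytoskeleton, adhesion and polarity, all of them tested, 3 (17.6%) had an unadjusted p under 0.05 with lower mean values in dKO cortex and 0 with higher ones, against 6.58% and 4.92% of all features tested. *Ptp4a3*, which encodes a phosphatase of the PRL family, had 2443, 2649.8 and 2501 normalized counts in wild-type and 2131, 1923 and 2005 in dKO cortex. Its libraries did not overlap (log2 fold change -0.33 ± 0.081 SE, limma adjusted p = 0.263). The feature of *Plec*, the gene of the cytolinker plectin, also carries the symbol *Parp10* and had 1636, 965 and 1155 against 812, 1018 and 849 normalized counts (log2 fold change -0.46). *Eppk1*, encoding the related epiplakin, shares its feature with *BC024139* and had 151, 175 and 196 against 80.8, 158 and 57.99 normalized counts (log2 fold change -0.93). In each of these shared features 1 dKO library lay among the wild-type values, and the reads of the joined genes cannot be told apart. *Ptk2*, the gene of focal adhesion kinase, with the most reads of the list, had 5493, 5591 and 5151 against 6449, 5292 and 5846 normalized counts. Markers of other tissue in the sample were uneven between libraries. The 5 meningeal genes, of which *Col1a2* had the most reads and none was at 0, summed to 777, 361 and 1255 normalized counts in wild-type and 381, 434 and 375 in dKO cortex. All 5 had log2 fold changes below 0, and *Dcn* (-1.59, limma unadjusted p = 0.0262) did not overlap between the genotypes. The 6 endothelial genes, led by *Cldn5*, summed to 5218, 4422 and 5704 against 4389, 4802 and 4189, with *Slco1a4* at 0 in 2 dKO libraries. All 5 tested endothelial genes had log2 fold changes below 0, among them *Cldn5* (-0.028), *Flt1* (-0.76, limma unadjusted p = 0.00461) and *Kdr* (-0.66, limma unadjusted p = 0.0156), and the libraries overlapped for these 3 genes but not for *Pecam1* (-0.12). Both sums overlapped between the genotypes, 0 genes of either list passed the adjusted test of limma, and DESeq2 called 1, *Flt1* (adjusted p = 0.0241). The 6 tested erythroid genes all had log2 fold changes above 0, with 0 at an unadjusted p under 0.05 (against 11.5% of all features). That list summed to 54010, 54489 and 67738 normalized counts in wild-type and 55372, 62563 and 80748 in dKO cortex, with overlap. Of the tested microglia genes 4 lay below 0 and 3 above, and of the interneuron genes 3 lay below and 3 above. Both of these lists had 0 genes at an unadjusted p under 0.05 (against 11.5% of all features). *Aqp1* (log2 fold change -0.60) was the only choroid plexus gene tested. The part of these lists in the values of the window was not tested. Fewer cells of a type and less RNA per cell cannot be told apart in whole tissue.

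All 11 tested members of a list for RNA and protein synthesis had log2 fold changes above 0, between 0.0095 and 0.20. They include *Pycrl* (0.083), the gene of an enzyme of proline synthesis. Of the 11, 0 were called by the adjusted test of limma and 0 had an unadjusted p under 0.05 (against 11.5% of all features). Among all features tested 9603 of 18970 lay above 0. The list does not hold *Eif3l* (log2 fold change 0.24, limma unadjusted p = 0.00541) or *Bop1* (0.21, limma unadjusted p = 0.0448), which act in translation and ribosome assembly. Under quantile normalization 9 of the 11 lay above 0 and 2 below. *Exosc4*, a core subunit of the RNA exosome, had 1226, 1463 and 1424 normalized counts in wild-type and 1525, 1575 and 1623 in dKO cortex, and *Eef1d*, a subunit of an elongation factor, had 2651, 2918 and 2858 against 3066, 3154 and 2970.4. For these genes alone on the list, all dKO libraries lay above all wild-type libraries (18.2% of the tested genes, against 7.89% of all features tested). *Rpl8*, a ribosomal protein gene, had 26153, 30722 and 29126 against 28793, 34425 and 35680.5 normalized counts, and *Rbfox2*, a splicing regulator of neurons and other cells, had 8256, 8331 and 8091 against 9360.0, 8224 and 9483. Of 15 tested members for metabolism and mitochondria, 2 (13.3%, against 11.5% of all features) had an unadjusted p under 0.05. *Oplah*, the gene of an enzyme of the glutathione cycle, had 309, 293 and 326 against 197, 262 and 245 normalized counts without overlap (log2 fold change -0.41, limma adjusted p = 0.385). *Gpaa1*, a subunit of the enzyme that attaches lipid anchors to proteins, had 1322, 1197 and 1326 against 1219, 1005 and 1061 normalized counts, and 1 dKO library lay within the wild-type range. *Sqle*, which encodes squalene epoxidase of cholesterol synthesis, had 13837, 12861 and 13348 against 12858, 12124 and 11354 normalized counts. Its libraries did not overlap either, by a narrow margin, with a log2 fold change of -0.14 (limma unadjusted p = 0.0927).

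The member with the smallest adjusted p was *Kifc2*, a kinesin gene with a C-terminal motor that is expressed in neurons (chr15:76659858-76668196, 7.56 Mb distal). It had 1018, 793 and 1174 normalized counts in wild-type and 550.0, 690.2 and 579.9 in dKO cortex (995 ± 192 against 607 ± 73.8, mean ± SD, n = 3 each). All dKO libraries lay below all wild-type libraries, with a log2 fold change of -0.70 ± 0.15 SE (limma adjusted p = 0.187, ranging over 0.0518 to 0.632 when single libraries were left out). DESeq2 called it with an adjusted p of 0.00263. Its feature overlaps that of *Cyhr1* on the opposite strand, and since the strand setting of the counting is not given in the sources used here, reads from the shared stretch are uncertain.

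Among the other members with at least 50 normalized counts, an unadjusted p under 0.05 and no overlap, *Them6*, *Card10* and *Ift27* had lower values in dKO cortex. *Them6*, of the thioesterase superfamily, had 179.8, 171 and 211 against 139, 93.1 and 83.5 normalized counts (log2 fold change -0.86, limma adjusted p = 0.268), and its feature overlaps that of *Slurp1*, which was at 0. *Card10*, a scaffold gene of signalling to NF-κB, had 249, 197 and 218 against 119.8, 178 and 129.9 normalized counts (log2 fold change -0.65, limma adjusted p = 0.325). *Ift27*, a small GTPase gene of transport in cilia, had 642, 715 and 730.3 against 566, 495 and 623 normalized counts (log2 fold change -0.31). In all, 7 of the 139 members with at least 50 normalized counts (5.04%) met these criteria with lower values in dKO cortex, against 4.72% of all such features.

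With higher values in dKO cortex 6 members (4.32%) met them, against 4.21% of all such features. *Mfng*, which encodes the glycosyltransferase Manic fringe that modifies Notch receptors, had 319, 493 and 385 normalized counts in wild-type and 502, 494 and 588 in dKO cortex (log2 fold change 0.42, limma adjusted p = 0.39). Its wild-type libraries were spread widely and the highest of them lay just under the lowest dKO library. *Eif3l*, a subunit of a translation initiation factor and the farthest tested member on the distal side at 9.97 Mb, had 7762, 7811 and 7968 against 9257, 9112 and 9426 normalized counts. The libraries within each genotype were close to each other, and the log2 fold change was 0.24 ± 0.069 SE (limma adjusted p = 0.318). The libraries of *Bop1* overlapped, with 4108, 3942 and 3445 against 4809, 4097 and 4412 normalized counts.

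*Mapk15*, an atypical MAP kinase gene linked to cilia, had too few reads for these criteria and was singled out after its values were seen, because DESeq2 called it. It had 39.9, 24.7 and 80.7 normalized counts in wild-type and 5.45, 16.7 and 9.28 in dKO cortex. The wild-type libraries varied over a wide range but all lay above the dKO libraries (log2 fold change -2.06 ± 0.54 SE, limma adjusted p = 0.268 and 0.0285 from DESeq2). With a pseudocount of 10 the log2 fold change was -1.43.

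The 50 tested members without a symbol were counted about as often as those with one. At an unadjusted p under 0.05, 6 of them (12%) were counted, against 10.6% of all features without a symbol, and 16 of the 130 named members (12.3%) were, against 11.8% of all features with one. Of the 50, 46 overlap a GENCODE gene and 28 overlap a named feature of the table. The ends of 9 lie within 1 kb of those of a named feature, and their levels ran from 2.4% to 5.9% of that feature's normalized counts. GSMG0066440, which spans *Myc*, had 148, 169.7 and 140.3 against 131, 186 and 117 normalized counts. Features at processed pseudogenes share sequence with their parent genes, so their reads are uncertain. GSMG0070530, at *Gm15387*, had 20069, 21875 and 19689 against 21974, 21109 and 21877 normalized counts, and GSMG0069072, at *Tsg101-ps*, had 2009.6, 2239.5 and 2137 against 2271, 2301 and 2518.

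The unnamed member with the smallest adjusted p was GSMG0013346 (chr15:78119704-78144142, 9.02 Mb distal). It had 38.04, 32.2 and 35.1 normalized counts in wild-type and 62.6, 156 and 97.4 in dKO cortex. The wild-type libraries were close together and the dKO libraries were spread above them, with a log2 fold change of 1.46 ± 0.33 SE (limma adjusted p = 0.224, ranging over 0.0608 to 0.662 when single libraries were left out). DESeq2 called it with an adjusted p of 0.00732. Its position matches that of the GENCODE gene *A730060N03Rik*, an antisense RNA on the plus strand whose first exon overlaps the start of *Cacng2* on the minus strand. *Cacng2* encodes stargazin, which brings AMPA receptors to synapses, and had 2693, 2034 and 2252 against 2480.2, 2537 and 2216 normalized counts with overlap. The features share 325 bases, where reads cannot be assigned without a strand setting. The annotated transcript has 2124 bases in 2 exons (chr15:78119706-78120420 and chr15:78142734-78144142). The 80 bases on each side of its splice junction are shown because they belong to the antisense RNA and to no other GENCODE gene. They lie at chr15:78120341-78120420 and chr15:78142734-78142813 of build GRCm38 on the plus strand, from the GENCODE M21 transcript sequence, with the bases of exon 2 in capitals.
A730060N03Rik: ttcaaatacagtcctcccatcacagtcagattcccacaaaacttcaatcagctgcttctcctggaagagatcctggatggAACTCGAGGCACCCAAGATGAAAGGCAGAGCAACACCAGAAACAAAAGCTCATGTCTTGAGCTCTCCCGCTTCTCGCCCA

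Other unnamed members also differed in level between the genotypes without passing the adjusted test. GSMG0066370 (chr15:76818309-76822025) overlaps no GENCODE gene and had 65.6, 64.4 and 94.7 normalized counts in wild-type and 109, 135 and 166 in dKO cortex, without overlap (log2 fold change 0.86, limma adjusted p = 0.309). GSMG0014111 (chr15:74374407-74375714), also outside annotated genes, had 18.1, 35.4 and 27.2 against 10.9, 0 and 1.16 normalized counts (log2 fold change -3.19, limma adjusted p = 0.291), and 1 dKO library was at 0. Its log2 fold change ran from -4.20 to -2.41 with single libraries left out and was -4.55 and -1.45 with pseudocounts of 0.1 and 10. GSMG0013248 (chr15:66646399-66647969) lies beyond the end of the *Phf20l1* feature but inside the GENCODE gene of that name. It had 65.6, 45.1 and 58.7 against 24.5, 39.7 and 16.2 normalized counts, opposite in direction to *Phf20l1* itself. GSMG0013284 (chr15:75642128-75653643), at the unitary pseudogene *2810039B14Rik*, had 39.9, 65.5 and 62.2 against 36.3, 33.5 and 19.7 normalized counts. GSMG0014138 (chr15:75651711-75652891), at the same pseudogene, had a log2 fold change above 0 (0.24), with overlap between the genotypes. GSMG0014111, GSMG0013248 and GSMG0013284 have means under 50 normalized counts and were singled out after their values were seen.

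Several gene families of the window gave few reads or none. Of 12 apolipoprotein L genes, which act in lipid binding and innate immunity, 6 were at 0 in all libraries and 0 reached a mean of 10 normalized counts. Of 5 gasdermin genes, 3 were at 0 and 1 was tested. This gene, *Gsdmd*, which encodes the pore-forming protein of pyroptosis, had 51.4, 21.5 and 57.9 against 50.8, 64.8 and 66.1 normalized counts. Of 16 further genes of the Ly6/uPAR family, 7 were at 0 and 3 were tested. Of these 3, 0 had an unadjusted p under 0.05 (against 11.5% of all features). *Ly6c1*, a surface protein gene of brain endothelium and blood cells, had 131, 103 and 168 normalized counts in wild-type and 86.2, 128 and 74.2 in dKO cortex. *Ly6a* had 51.4, 23.6 and 59.6 against 29.04, 42.9 and 24.4 normalized counts, and *Gpihbp1*, which anchors lipoprotein lipase to capillaries, had 9.51, 15.04 and 17.5 against 3.63, 14.6 and 6.96. All 3 overlapped between the genotypes. Their log2 fold changes lay below 0, as did those of the 5 tested endothelial markers, whose part in these values was not tested. Of 12 genes on a list for blood and immune cells, 7 were tested and 0 had an unadjusted p under 0.05 (against 11.5% of all features). *Ncf4*, a subunit of the phagocyte oxidase, was low, with 10.5, 0 and 21.04 against 7.26, 16.7 and 18.6 normalized counts. Its log2 fold change was 1.17 ± 1.03 SE and ran from -0.16 to 2.07 with single libraries left out. *Sla*, an adaptor protein gene that lies inside *Tg* on the opposite strand, had 4126, 4059 and 3209.6 against 4019, 3499 and 4642 normalized counts. The microglia gene *Csf1r* had 822, 579 and 787 against 620, 616 and 701. The cells that gave the reads of *Sla* were not identified.

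Outside the window, 562 features of chromosome 15 were tested, of which 0 passed the adjusted test of limma, edgeR called 0 and DESeq2 called 12. At an unadjusted p under 0.05, 84 of them (14.9%) were counted, and for 116 (20.6%) the genotypes did not overlap. Around *Khdrbs1* on chromosome 4, the other targeted gene, 302 features within 10 Mb were tested, of which 0 passed the adjusted test of limma, edgeR called 0 and DESeq2 called 7. At an unadjusted p under 0.05, 47 of them (15.6%) were counted, and 58 (19.2%) did not overlap. DESeq2 called 202 of all 18970 features tested (1.06%) and 3 of the 180 members. It called 12 of the 562 features in the rest of chromosome 15 and 7 of the 302 around *Khdrbs1*. An unadjusted p under 0.05 was found for 11.5% of all features and 12.2% of the members, and no overlap for 16.4% and 17.2%. These shares are a description, and the differences were not tested. A p that misses the threshold with 3 libraries a genotype does not show that a gene is equal between them.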

How the data were processed

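PolyA+ RNA-seq of cortex at embryonic day 18.5 was analysed for 3 wild-type and 3 dKO samples, grouped by the genotype in their titles. Libraries were made with a stranded mRNA kit and read as 150 bp pairs. The deposited signal of a FAST database gene is its number of reads after scaling by a DESeq2 size factor, that is, a normalized count. Per the labels, the submitters' processing notes name FastQC, Picard, SAMtools, STAR 2.7.5a, DESeq2 and build mm10. The counting program and its strand setting are not given in the sources used here. Dividing by the value of 1 read gave whole numbers for 100% of values above 0 (tolerance 0.01), and these recovered reads were used for count tests.

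Genotypes were compared with limma 3.58.1 in R 4.3.3, with trend and robust variance estimates, after adding a pseudocount of 1 and taking log2. Features needed a mean of 10 or more, and the Benjamini-Hochberg adjustment covered all of them, with a threshold of 0.05. edgeR 4.0.16 (quasi-likelihood) and DESeq2 1.42.0 on recovered reads were alternatives; they called 19 and 202 features of the whole table and 0 and 3 members. Python 3.11.15 with pandas 2.3.3 and scipy 1.17.1 was used for counts. Other alternatives were pseudocounts of 0.1 and 10, other filters, TMM and quantile scaling, limma without its options, a replicate block, single libraries left out, other windows, bins and thresholds, and features with a symbol only.

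Distances are from the nearest end of *Khdrbs3*, in bins of 2.5 Mb. Named members are those passing the adjusted test, up to 10 in each direction with a mean of at least 50, an unadjusted p under 0.05 and no overlap, the 4 nearest tested features and the 4 nearest with a symbol on each side, and examples of gene lists with the largest absolute log2 fold change or the most reads. Other members in the text were singled out after their values were seen. The members and lists were chosen with earlier results of these data known. Splicing was not analysed here.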

Additional observations from a re-analysis of the deposited data

How the results depend on the processing

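Of 58 named features, 45 kept their sign in every alternative and 13 did not. With single libraries left out, the log2 fold changes of these 13 features crossed 0. They ran from -0.11 to 0.011 for *Adgrb1*, from -0.033 to 0.17 for *Cacng2*, from -0.12 to 0.010 for *Col22a1*, from -0.44 to 0.094 for GSMG0014072, from -0.44 to 0.52 for GSMG0014086 and from -0.30 to 0.034 for GSMG0066440. They ran from -0.032 to 0.065 for *Grina*, from -0.10 to 0.043 for *Myc*, from -0.16 to 2.07 for *Ncf4*, from -0.066 to 0.016 for *Peg13*, from -0.023 to 0.19 for *Sla*, from -0.18 to 0.077 for *St3gal1* and from -0.11 to 0.21 for *Zfat*. The main value of *Ncf4* was 1.17, with wild-type library 2 at 0. Under quantile normalization the values were 0.12 for GSMG0014086, 0.0075 for GSMG0066440 and -0.071 for *Grina*. The causes were not tested, and none of these features was called in any alternative.

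At an adjusted p under 0.05, limma called 0 members under every alternative listed in the methods. A limit of 0.1 was applied to the main fit only and also gave 0. The smallest limma adjusted p of a member was 0.0518 without wild-type library 2, 0.0608 without dKO library 1 and 0.087 with no filter. edgeR called 0, with 22 at an unadjusted p under 0.05 (12.2%, against 11.7% of all features). DESeq2 called 3, *Kifc2*, GSMG0013346 and *Mapk15*, against 1.06% of all features. It counted 21 at an unadjusted p under 0.05 (11.7%, against 11.6% of all features). With *Lynx1*, *Ly6h* and *Ly6e* kept, added after the data were seen, limma called 1. Members at an unadjusted p under 0.05 numbered from 15 to 28 with single libraries left out (8.38% to 15.5%, against 6.47% to 14.3% of all features). They numbered from 18 to 29 with other filters (9.06% to 12.9%, against 9.12% to 11.9%) and 16 with symbols only (12.3%, against 11.4%). A window of 5 Mb, which holds 44 tested members, gave 5, and 6 without overlap between genotypes (11.4% and 13.6%, against 11.5% and 16.4% of all features). Members without overlap, 31 in the main comparison (17.2%, against 16.4% of all features), numbered from 39 to 61 with fewer libraries to separate. There were 56 and 60 without dKO library 1 or 2 and 55 and 61 without wild-type library 1 or 2. The share of all features was not counted with fewer libraries, so these counts cannot be set against it. The median log2 fold change of the tested members ran from -0.025 to 0.0020 with single libraries left out, and was -0.022 for a mean of at least 1, -0.022 with no filter and 0.024 for features with a symbol. Within 1, 2.5 and 5 Mb of *Khdrbs3*, 0 of 1, 2 of 14 and 5 of 44 tested members had an unadjusted p under 0.05. These shares were 0%, 14.3% and 11.4%, against 11.5% of all features. Within 2.5 Mb the count was 1 with symbols only or with a mean of at least 50. It was 3 with a mean of at least 1, with no filter or without dKO library 2. The features tested within 2.5 Mb were not counted for these alternatives, so their shares are not given. The causes were not tested where fewer features do not show them.

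The titles number the libraries 1 to 3 in each genotype. They do not state a pairing. Deviations from the group mean correlated by 0.098, -0.23 and -0.079 between same-numbered libraries, and not every library correlated best with its own number. These 3 values are too few to tell whether the numbers pair the samples. With the replicate block limma called 0 members, and 25 at an unadjusted p under 0.05 (13.9%, against 12.2% of all features). Low depth limits members under about 50 normalized counts, where a few reads decide a value.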
